A study of Mus musculus with 4 samples.

Results

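Mitochondrial fatty acid beta oxidation was followed through 10 of its genes, Cpt1a, Cpt2, Acadvl, Acadl, Acadm, Acads, Hadha, Hadhb, Hadh and Acaa2, in the pancreas of Cyp11a1 knockout and wild-type mouse embryos. Their probes were found by matching the RefSeq transcript given for each non-control probe to the gene, which gave 11 of 41174 different probes, 2 of them for Cpt1a and 1 for each other gene. All 10 genes were among the 15524 genes that could be tested. The knockout group held 4 pancreas extracts of Cyp11a1 knockout embryos and the wild-type group 4 extracts of wild-type embryos, all of strain C57BL/6JNarl at stage E18.5. Each of 4 two-colour Agilent arrays held 1 knockout extract in red (Alexa 647) and 1 wild-type extract in green (Alexa 555), and no array had the dyes swapped. Cyp11a1 encodes the mitochondrial enzyme that turns cholesterol into pregnenolone, and the sources used here do not say which part of the gene the knockout lacks. The arrays are labelled as biological replicates. How many embryos went into an extract is not stated in the labels, so the p-values measure the spread between these 4 arrays. For each gene the limma fit also draws that spread toward a value common to all genes, in its p-values and SEs. Knockout and red dye coincide on every array, so genotype and a dye effect specific to a probe cannot be told apart in any value below.

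Beta oxidation shortens fatty acids inside mitochondria and hands electrons to the respiratory chain and acetyl-CoA to the citrate cycle. Long-chain fatty acids enter through a carnitine shuttle made of Cpt1a in the outer and Cpt2 in the inner membrane. Each turn then takes an acyl-CoA dehydrogenase chosen by chain length, a hydratase, a hydroxyacyl-CoA dehydrogenase and a thiolase. Hadha and Hadhb are the subunits of the mitochondrial trifunctional protein, which carries out the last 3 of these steps on long chains. Hadh and Acaa2 serve shorter chains. In beta cells Hadh is also known as a brake on insulin secretion. Many genes of the pathway are targets of the fatty acid receptor Ppara, chiefly described in liver.

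Hadha and Hadhb are neighbours that start in opposite directions, and both were among the members that rose, so the 272 bases between their annotated starts are shown, with stretches upstream of Cpt2 and Acadvl, which rose as well. The sequences come from the RefSeq promoter table of build GRCm38.p6, which held 9 of the 10 genes and no entry for Acaa2. Capitals mark matches on either strand to the nuclear receptor hexamer AGGTCA or the GC box GGGCGG. The first stretch lies at chr5:30154981-30155252 on the plus strand, from the base before the start of Hadha to the base before the start of Hadhb. The Cpt2 stretch is the 250 bases before its start, chr4:107923590-107923839 on the minus strand. The Acadvl stretch is the 250 bases before its start, chr11:70015429-70015678 on the minus strand.
Hadha-Hadhb: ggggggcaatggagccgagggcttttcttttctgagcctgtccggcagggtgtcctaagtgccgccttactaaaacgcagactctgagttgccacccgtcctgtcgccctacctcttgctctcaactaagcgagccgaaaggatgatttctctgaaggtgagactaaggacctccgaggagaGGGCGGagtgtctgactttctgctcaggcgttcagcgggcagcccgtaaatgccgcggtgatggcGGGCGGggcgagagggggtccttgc
Cpt2: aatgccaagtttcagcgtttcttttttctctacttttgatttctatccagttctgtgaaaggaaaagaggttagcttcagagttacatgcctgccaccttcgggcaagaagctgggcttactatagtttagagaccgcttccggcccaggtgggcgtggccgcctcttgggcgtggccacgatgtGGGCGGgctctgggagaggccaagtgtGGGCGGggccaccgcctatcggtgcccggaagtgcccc
Acadvl: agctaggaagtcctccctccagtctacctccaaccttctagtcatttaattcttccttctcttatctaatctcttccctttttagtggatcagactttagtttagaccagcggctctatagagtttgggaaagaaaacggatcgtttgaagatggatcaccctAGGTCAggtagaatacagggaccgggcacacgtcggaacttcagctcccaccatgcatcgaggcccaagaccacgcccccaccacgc
The GC box occurred in the table's windows (250 bases before to 50 after each start) of 7 of 9 members (Acadl, Acads, Cpt1a, Cpt2, Hadh, Hadha and Hadhb), and in 35.66% of all 32851 windows of the table. The hexamer occurred in 3 of 9 (Acadm, Acadvl and Cpt1a), and in 16.26% of all windows. The windows of 8 of the 9 members held more G and C than the median window of the table, 57.3% to 70.3% against 52.7%, and Acadvl held 50.7%. The hexamer repeated after 1 base, AGGTCANAGGTCA, which is the classical PPAR element and contains the hexamer, was in none of the 9 windows and in 0.04% of all. The ERR element TCAAGGTCA, which also contains the hexamer, was in none of the 9 windows and in 0.42% of all. The NRF1 palindrome and the TATA box TATAAA were in none of the 9 windows, and in 0.97% and 13.62% of all. The CCAAT box CCAAT was in the windows of Cpt1a and Hadh, and in 37.41% of all. Such matches describe letters in a short window and do not show binding.

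Of the 10 genes, 5 were higher in knockout pancreas and 0 lower in the limma fit across all genes (adjusted p under 0.05), and 7 had an unadjusted p under 0.05, all 7 of them higher. Among all 15524 genes 9.45% were called higher and 5.11% lower, and at an unadjusted p under 0.05 they were 30.8% in either direction and 19% higher. The genes called were Acaa2, Cpt2, Hadha, Hadhb and Acadvl. On the log2 scale the median ratio (knockout over wild type) of the 10 genes was 0.17, and that of all genes 0.013. The changes were small, 1.29-fold for Acaa2 at the upper end, and 9 of the 10 genes had a mean above 0. On all 4 arrays 7 of the 10 were above 0 and none below, against 24.6% and 14.4% of all genes with 4 values. Ratios of the spike-in controls were compressed: per the file headers, their observed log ratios had slopes of only 0.67 to 0.73 on the expected ones. Those slopes belong to the ratios of Feature Extraction, not to the ratios fitted here. The median ratio of the 10 genes was 0.235 with the processed signals of Feature Extraction and 0.244 with the deposited log ratios. In whole-pancreas extracts, more cells of a type and more RNA per cell cannot be told apart.

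**Figure D1:**
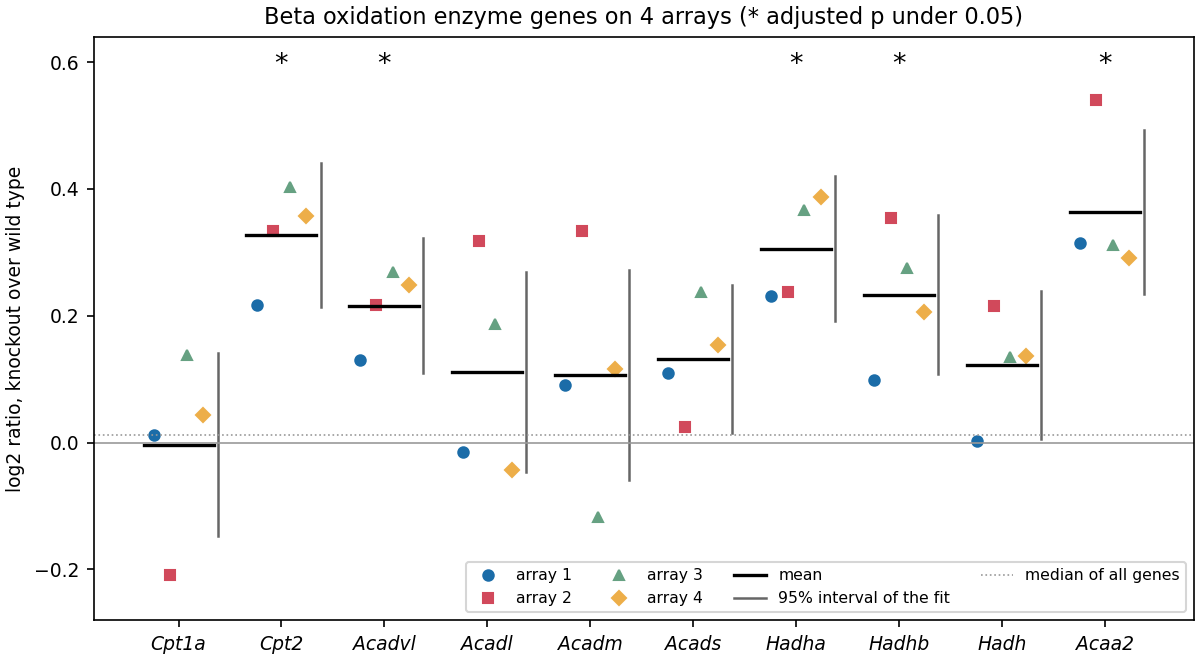
Log2 ratio of knockout over wild type (vertical axis) for each of the 10 genes (horizontal axis) on arrays 1 to 4 after loess normalisation, with the mean as a bar, the unadjusted 95% interval of the limma fit as a vertical line beside it and the median of all genes as a dotted line. Stars mark Cpt2, Acadvl, Hadha, Hadhb and Acaa2, which passed the test and lie above 0 on every array, whereas Cpt1a, Acadl and Acadm have arrays on both sides of 0.

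Of the carnitine shuttle, Cpt2 passed the test and Cpt1a did not. Cpt2, which rebuilds acyl-CoA on the matrix side, had normalised log2 signals of 9.57, 9.64, 9.63 and 9.48 in the knockout extracts of arrays 1 to 4, against 9.35, 9.31, 9.23 and 9.13 in the wild-type extracts. Every knockout extract was above every wild-type extract, and the ratio was above 0 on all 4 arrays. Cpt2 rose by 0.33 ± 0.049 on the log2 scale (SE, n = 4 arrays, limma adjusted p = 0.0068), or 1.26-fold.

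Cpt1a, the step that malonyl-CoA inhibits and that limits entry of long chains, did not pass. Its brighter probe (A_52_P219753) had log2 signals of 9.44, 9.36, 9.51 and 9.57 in knockout extracts, against 9.43, 9.57, 9.37 and 9.52 in wild-type extracts, and the groups overlapped. The log2 ratio was -0.0036 ± 0.062 (SE, n = 4, limma adjusted p = 0.977), with an unadjusted 95% interval of -0.15 to 0.14. On array 2 the knockout extract was the lower one by 0.21, and without replicate 2 the ratio was 0.065 (adjusted p = 0.447). The second probe (A_51_P427674), which is spotted 10 times, gave 0.057 ± 0.052 and did not pass either. The ratio of Cpt2 exceeded that of Cpt1a on all 4 arrays, by 0.33 ± 0.15 (SD, n = 4). An exact sign-flip test of this difference gave p = 0.125 (two-sided), the smallest that 4 arrays allow, and 0.188 after adjustment over the 3 pairs compared.

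**Figure D2:**
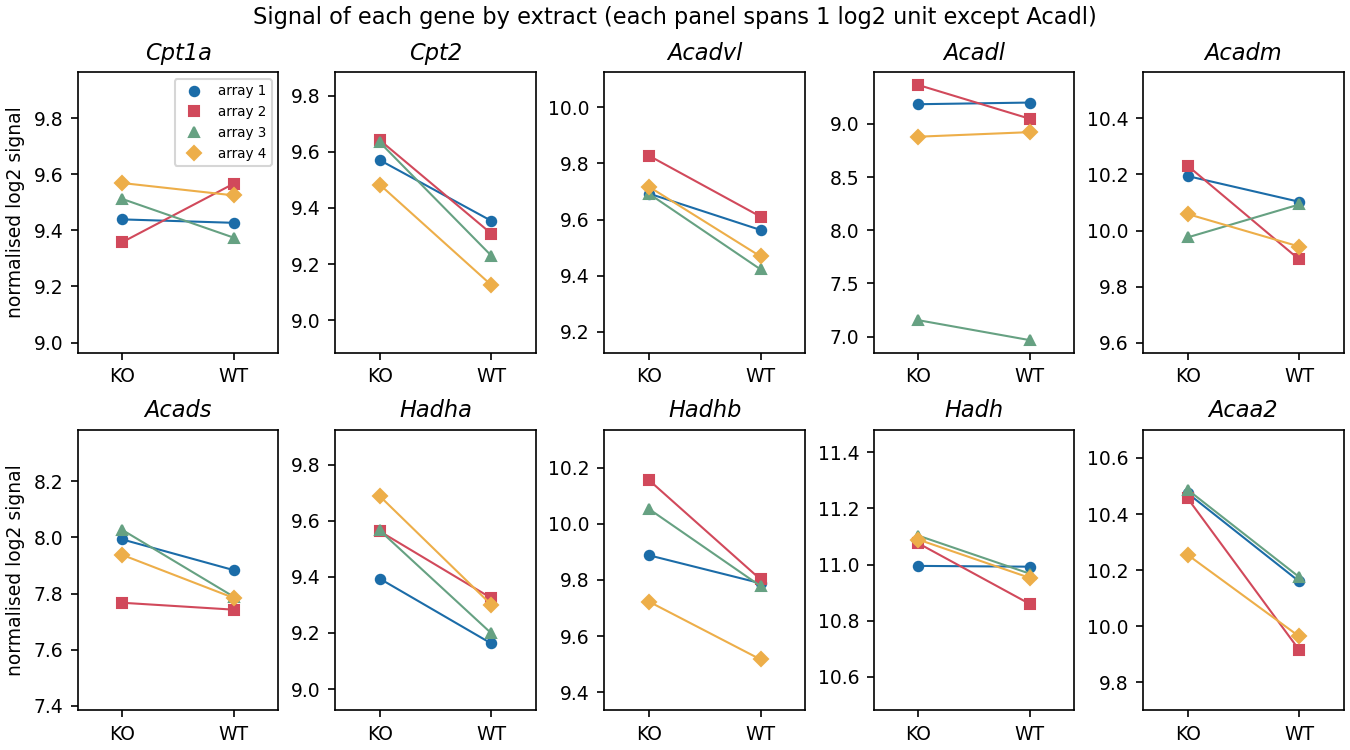
Normalised log2 signal (vertical axis) of each of the 10 genes in the knockout (KO) and wild-type (WT) extract of each array, with a line joining the extracts of 1 array. All 4 lines fall from KO to WT for Cpt2, Acadvl, Acads, Hadha, Hadhb, Hadh and Acaa2, and both Acadl extracts of array 3 lie at 7.15 (KO) and 6.97 (WT), below all others.

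Among the acyl-CoA dehydrogenases, Acadvl, which takes very long chains at the inner membrane, was the one that passed. It had log2 signals of 9.69, 9.83, 9.69 and 9.72 in knockout extracts, against 9.56, 9.61, 9.42 and 9.47 in wild-type extracts, and the groups did not overlap. Its ratio was 0.22 ± 0.046 (SE, n = 4, limma adjusted p = 0.022), or 1.16-fold. This call was lost without 1 replicate in 2 cases: without replicate 3 the ratio was 0.20 (adjusted p = 0.093) and without replicate 4 it was 0.21 (adjusted p = 0.094).

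Acads, the short-chain enzyme, gave ratios of 0.11, 0.025, 0.24 and 0.15 on arrays 1 to 4, above 0 on each. Its mean of 0.13 ± 0.050 did not pass (limma adjusted p = 0.124, unadjusted 95% interval 0.015 to 0.25), and was 0.22 with the processed signals of Feature Extraction (adjusted p = 0.057). Acadvl exceeded Acads on all 4 arrays by 0.085 ± 0.079 (SD, n = 4). The exact sign-flip test gave p = 0.125 (adjusted 0.188). This is the smallest that 4 arrays allow, so the test could not establish a difference between these ratios.

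Acadm, the medium-chain enzyme, gave 0.092, 0.33, -0.12 and 0.12 on arrays 1 to 4, with array 3 on the other side of 0. It averaged 0.11 ± 0.071 (limma adjusted p = 0.352), with 0.030 when replicate 2 was left out and 0.18 when replicate 3 was. Acadl, the long-chain enzyme, gave -0.016, 0.32, 0.19 and -0.043, and averaged 0.11 ± 0.068 (limma adjusted p = 0.308). The upper ends of their unadjusted 95% intervals were 0.27 for both genes, so a change as large as that of Acadvl is within what these arrays allow. The Acadl spot of array 3 was dim in both channels, with median signals of 174 (knockout) and 87.5 (wild type), against 572.5 to 797 and 334.5 to 390.5 on the other arrays. It was still well above background there, and leaving out 1 replicate gave ratios of 0.043 (replicate 2) to 0.16 (replicate 4), with 0.086 for replicate 3. With the processed signals Acadl was at 0.24 (adjusted p = 0.131).

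Hadha, the alpha subunit of the trifunctional protein with hydratase and dehydrogenase activity, had log2 signals of 9.39, 9.56, 9.56 and 9.69 in knockout extracts, against 9.16, 9.32, 9.20 and 9.30 in wild-type extracts. The groups did not overlap. Hadha rose by 0.31 ± 0.049 (SE, n = 4, limma adjusted p = 0.0089), or 1.24-fold. Hadhb, the thiolase subunit, had log2 signals of 9.89, 10.16, 10.05 and 9.72 in knockout extracts, against 9.79, 9.80, 9.78 and 9.52 in wild-type extracts. These groups overlapped because both extracts of array 4 were low, although the knockout extract was the higher one on every array.

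The ratio of Hadhb was 0.23 ± 0.054 (SE, n = 4, limma adjusted p = 0.029), or 1.18-fold. Its call was lost without replicate 2 (0.19, adjusted p = 0.071), replicate 3 (0.22, adjusted p = 0.102) or replicate 4 (0.24, adjusted p = 0.085). It was also lost with the processed signals of Feature Extraction (0.25, adjusted p = 0.061) and with the deposited log ratios (0.26, adjusted p = 0.053). Hadha minus Hadhb was 0.13, -0.12, 0.092 and 0.18 on arrays 1 to 4, and 0.072 ± 0.13 on average (SD, n = 4; exact sign-flip p = 0.375). The smallest p that 4 arrays allow in this test is 0.125, so it could not establish a difference in ratio between the subunit genes.

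The enzymes of shorter chains were Hadh and Acaa2. Hadh gave 0.0028, 0.22, 0.14 and 0.14 on arrays 1 to 4, and its mean of 0.12 ± 0.050 did not pass (limma adjusted p = 0.145, unadjusted 95% interval 0.0062 to 0.24). Every knockout extract of Hadh was nonetheless above every wild-type extract, at 11.00 to 11.10 against 10.86 to 10.99. In all, 5 of the 10 genes had knockout extracts wholly above the wild-type ones (Cpt2, Acadvl, Hadha, Hadh and Acaa2), and none had them wholly below. Among all genes with 4 values 6.23% lay wholly above and 2.15% wholly below.

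Acaa2, the thiolase that releases acetyl-CoA from medium and short chains, had the largest ratio of the 10 genes. Its log2 signals were 10.47, 10.46, 10.49 and 10.25 in knockout extracts, against 10.16, 9.92, 10.18 and 9.96 in wild-type extracts, without overlap. Acaa2 rose by 0.36 ± 0.056 (SE, n = 4, limma adjusted p = 0.0075), or 1.29-fold. Array 2 stood apart at 0.54 while the others lay at 0.29 to 0.31, and without replicate 2 the ratio was 0.31 (limma adjusted p = 0.014).

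The probes of Acaa2 and the second probe of Cpt1a are spotted 10 times on each array, which shows the measurement error within an array. For Acaa2 all 40 spots lay above 0, from 0.20 to 0.66, with an SD of 0.046 to 0.069 between spots of 1 array and of 0.12 between the array means. For Cpt1a the spots ran from -0.11 to 0.31. Their SD was 0.042 to 0.093 within an array and 0.091 between the array means. The arrays of Cpt1a differed among themselves, with 10 of 10 spots above 0 on arrays 1 and 3, 5 of 10 on array 2 and 3 of the 9 used on array 4.

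**Figure D3:**
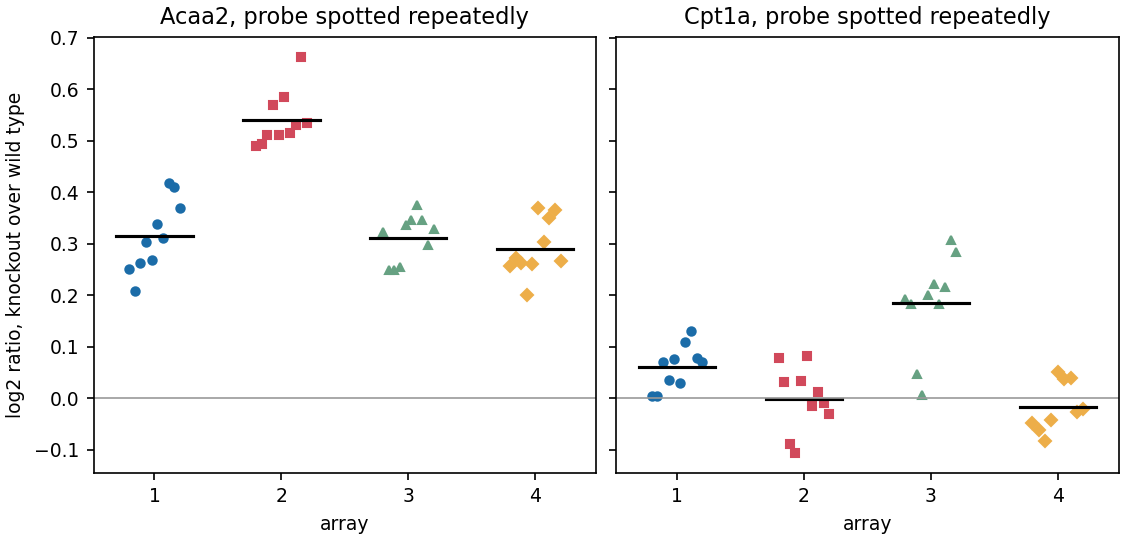
Log2 ratio of knockout over wild type (vertical axis) of single spots of the Acaa2 probe (left) and of the 10-fold spotted Cpt1a probe (right) on arrays 1 to 4 (horizontal axis), with the array mean as a bar. All Acaa2 spots lie above 0 and those of array 2 centre on 0.54, whereas Cpt1a spots lie around 0 on arrays 2 and 4.

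Without replicate 3 or without replicate 4, 3 of the 10 genes passed (Acaa2, Cpt2 and Hadha), and these 3 passed whichever replicate was left out. Calls over all genes fell too, from 14.6% to 6.23% without replicate 3 and 6.8% without replicate 4. The normalisation moved the level of all genes: with median centring in place of loess, which leaves in the trend of ratio with brightness, the median of all genes was 0.26 and 61.0% of them were called higher. With that setting 8 of the 10 genes were called higher. Relative to the median of all genes, Acaa2 was then at 0.47, Cpt2 at 0.36, Hadha at 0.34, Hadhb at 0.31, Hadh at 0.28, Acadvl at 0.27, Acadm at 0.20 and Cpt1a at 0.035. Acadl and Acads were below that median, at -0.082 and -0.15.

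The genes around the core pathway did not move as a block, as the plot of pathway lists shows. Of 19 tested genes of fatty acid uptake, activation and carnitine, 1 rose and 2 fell in the limma fit, with a median of -0.027. That was 15.8% called, against 14.6% of all genes, and 1 to 4 were called with 1 replicate left out. Fabp4, a fatty acid binding protein, was not called on its brightest probe but was lower on 2 others (-0.29 and -0.25, adjusted p = 0.026 and 0.015 over all probes). Crat, which moves acetyl groups to carnitine, was at -0.31 ± 0.054 (adjusted p = 0.012, and 0.0503 without replicate 1). Cd36, a fatty acid transporter, was at -0.26 ± 0.046 (adjusted p = 0.012, and 0.053 without replicate 3 or 4). Acsm3, a medium-chain acyl-CoA synthetase, was at 0.25 ± 0.050 (adjusted p = 0.018, and 0.068 without replicate 1). With median centring all 3 signs turned, at 0.054, 0.069 and -0.041. Crat, Cd36 and Acsm3 were then at -0.20, -0.19 and -0.30 relative to the median of all genes, so that the direction of Acsm3 depends on the normalisation. With the processed signals and loess Acsm3 was at 0.68 (adjusted p = 0.021). Slc25a20, the translocase between Cpt1a and Cpt2, was at 0.075 ± 0.044 and did not pass.

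Of 17 tested auxiliary mitochondrial enzymes, 4 rose and 0 fell (23.5% called, against 14.6% of all genes), with a median of 0.13. Eci2, an enoyl-CoA isomerase for unsaturated chains, rose by 0.30 ± 0.045 (limma adjusted p = 0.0074). Pcca, a subunit of propionyl-CoA carboxylase for odd chains, rose by 0.36 ± 0.062 (adjusted p = 0.012). Both passed whichever replicate was left out. Acat1, a thiolase of short acyl-CoA and ketone bodies, reached 0.24 ± 0.050 (adjusted p = 0.022), a call lost when replicate 2, 3 or 4 was left out (0.057 to 0.090). Ivd, of leucine breakdown, reached 0.23 ± 0.050 (adjusted p = 0.023), a call lost when replicate 1, 2 or 3 was left out (0.058 to 0.092), and its other tested probe gave 0.23. With the processed signals Ivd was not called (adjusted p = 0.086). Echs1, the hydratase for shorter chains, was at 0.15 ± 0.067 and did not pass.

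The electron transfer flavoprotein takes electrons from all of the acyl-CoA dehydrogenases. Its alpha subunit gene Etfa was at 0.30 ± 0.075 (limma adjusted p = 0.035), with 0.13, 0.58, 0.19 and 0.32 on arrays 1 to 4. With any single replicate left out it did not pass (adjusted p = 0.0503 to 0.103). The beta subunit gene Etfb was at -0.041 ± 0.044 with loess and turned sign with median centring, at 0.51, which was 0.25 above the median of all genes. Etfdh, the oxidoreductase that passes the electrons on, was at 0.012 ± 0.066, and its other tested probe gave 0.12.

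Peroxisomes run a beta oxidation of their own with other enzymes. Of 18 tested genes, 2 rose and 0 fell, a share of 11.1% called against 14.6% of all genes, and 1 (Acaa1b) was called with the processed signals. Acaa1a, its paralog, was not called on its brightest probe (0.12) but was higher on 2 others (0.25 and 0.21, adjusted p = 0.016 and 0.030 over all probes). Acaa1b, a peroxisomal thiolase with a close paralog, reached 0.20 ± 0.043 (limma adjusted p = 0.024) and lost its call with any single replicate left out (adjusted p = 0.056 to 0.088). Amacr, a racemase of branched chains, was at 0.24 ± 0.053 (adjusted p = 0.027, and 0.064 to 0.092 without replicate 1, 2 or 4).

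Among 16 transcriptional regulators of the pathway 0 were called by limma and 3 had an unadjusted p under 0.05, and among 9 genes of malonyl-CoA control 0 were called and 2 had an unadjusted p under 0.05, shares below the 30.8% of all genes. With the processed signals 2 malonyl-CoA control genes were called, Acaca and Prkaa2, 1 higher and 1 lower. Acacb, a mitochondrial acetyl-CoA carboxylase, was at -0.036 on its brightest probe and at 0.20 on another (adjusted p = 0.047 over all probes). Ppara, which switches on beta oxidation genes in fasting liver, was at 0.026 ± 0.043, and Ppargc1a, a coactivator of mitochondrial genes, was at 0.036 ± 0.062. Of 15 other Ppara targets 1 was called, Cd36 (6.67%, against 14.6% of all genes), and the median was -0.043. Of 4 ketone body genes 0 were called by limma and 1 had an unadjusted p under 0.05. Oxct1, which activates ketone bodies for oxidation, was at 0.075 on its brightest probe, but its other probes passed at 0.34 and 0.24 (adjusted p = 0.0078 and 0.031 over all probes).

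Genes of the citrate cycle and of general mitochondrial upkeep had medians close to that of the beta oxidation genes. Of 18 citrate cycle genes, 4 rose and 1 fell, with a median of 0.13. That was 27.8% called, against 14.6% of all genes, and 2 to 5 were called with 1 replicate left out. With the processed signals only Idh3g and Fh1 of them were called. Suclg2, of succinate-CoA ligase, was not called on its brightest probe but was higher on another (0.37, adjusted p = 0.017 over all probes). Idh3g, a subunit of isocitrate dehydrogenase, rose by 0.44 ± 0.055 (limma adjusted p = 0.0041) and Fh1, fumarase, by 0.37 ± 0.060 (adjusted p = 0.0094). Idh2, the NADP-dependent isocitrate dehydrogenase, reached 0.38 ± 0.090 and Sdhc, a membrane subunit of succinate dehydrogenase, 0.23 ± 0.051. Neither passed when replicate 2, 3 or 4 was left out (adjusted p 0.065 to 0.093 for Idh2, 0.057 to 0.082 for Sdhc). Idh3a, the catalytic subunit of the same enzyme as Idh3g, was the gene that fell, by 0.23 ± 0.056 (limma adjusted p = 0.034). Its call was lost when replicate 1, 3 or 4 was left out (adjusted p up to 0.126) and with the processed signals (0.117). With median centring Idh3a turned sign, at 0.097 (limma adjusted p = 0.173), where the median of all genes was 0.26. Idh3a thus lay below the median of all genes with either normalisation, and only its sign against 0 changed.

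Of 24 mitochondrial housekeeping genes, 10 rose and 0 fell, with a median of 0.16. With 1 replicate left out 1 to 5 were called, and with the processed signals 4 (Hspe1, Clpp, Sirt5 and Sirt3). Hspe1, a matrix chaperonin, rose by 0.41 ± 0.069 (limma adjusted p = 0.010). Clpp, a matrix protease, was at 0.25 ± 0.044 (adjusted p = 0.012, and 0.053 without replicate 3). The sirtuin genes Sirt5 and Sirt3, whose products remove acyl groups from beta oxidation enzymes among others, were at 0.26 ± 0.055 and 0.23 ± 0.048. Sirt5 lost its call when replicate 3 or 4 was left out (adjusted p 0.054 to 0.075), and Sirt3 when replicate 1, 3 or 4 was (0.067 to 0.092). The other genes called were Timm44, Vdac3, Tomm20, Phb2, Tomm22 and Phb. All 6 lost their call with the processed signals (adjusted p = 0.052 to 0.0997). With any single replicate left out none of Timm44, Vdac3, Tomm20, Phb2 and Tomm22 passed, and Phb passed in 1 of 4 cases. Thus 41.7% of these genes were called, against 50% of the beta oxidation genes, and a difference between the lists was not tested. With the processed signals 4 of 24 and 4 of 10 were called, against 11.4% of all genes (7.37% called higher). Over all the other pathway lists together, 25 of 138 genes (18.1%) were called, 22 higher and 3 lower, against 14.6% of all genes called.

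**Figure D4:**
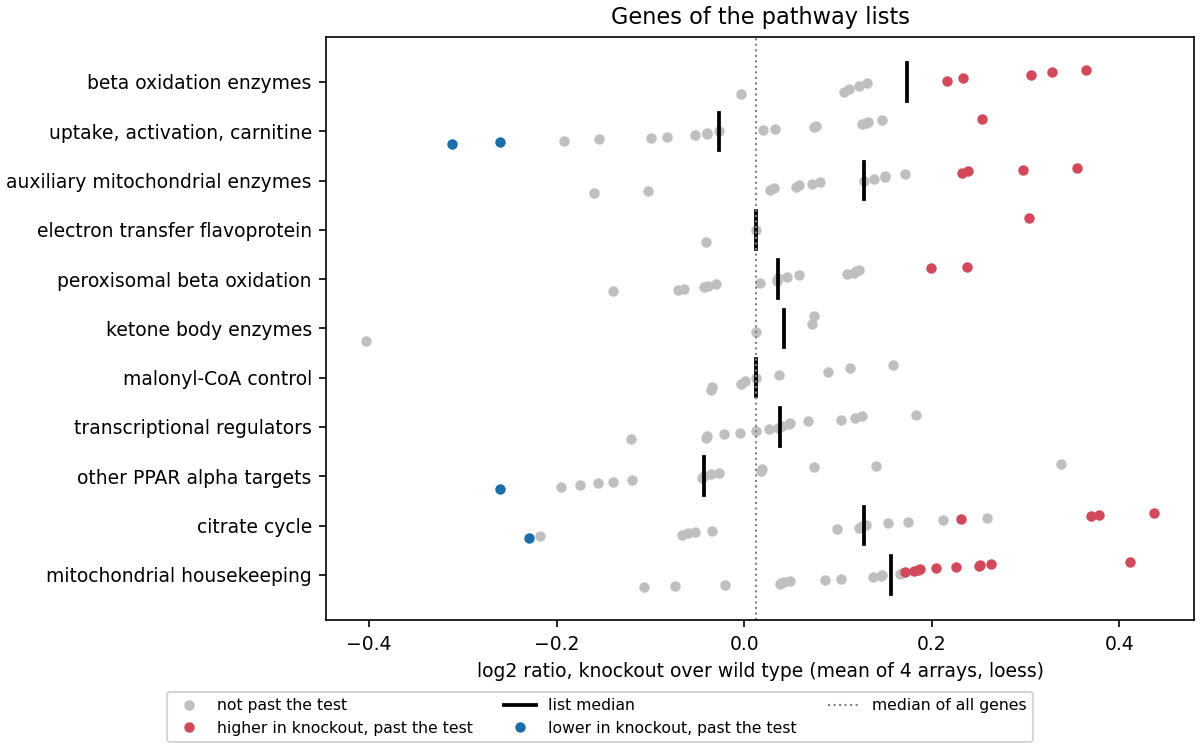
Mean log2 ratio of knockout over wild type after loess (horizontal axis) of each tested gene in the pathway lists (rows), coloured by its call in limma, with the list median as a bar and the median of all genes as a dotted line. The medians of the beta oxidation, citrate cycle and mitochondrial housekeeping lists lie at 0.17, 0.13 and 0.16, and those of the regulators and other Ppara targets at 0.038 and -0.043.

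Markers of pancreatic and other cell types were read from the same arrays. All 8 acinar markers and all 5 islet markers on the array were well above background, which fits the labelled tissue. Of the 5 islet markers 1 was called, Chga at -0.24 (limma adjusted p = 0.036), and the islet median was 0.013. Hepatocytes are rich in beta oxidation enzymes. All 8 of their markers on the array were well above background, and their summed normalised signal was 7375 to 17905 in knockout extracts and 6017 to 10352 in wild-type extracts. Their median log2 ratio was 1.23, 0.59, -0.42 and 0.37 on arrays 1 to 4, and none of the 8 was called by limma, with 2 at an unadjusted p under 0.05 (30.8% of all genes). The median of the 10 beta oxidation genes was 0.10, 0.28, 0.25 and 0.18. On array 3 the hepatocyte median was lower in the knockout extract, although Apoa2 (0.054) and Tat (0.00022) were not. There 9 of the 10 genes were above 0, with Acadm at -0.12, against 55.1% of all genes. The part of hepatocyte RNA in the ratios was not tested.

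The erythroid markers gave medians of 0.49, 0.082, -0.47 and 1.11 on arrays 1 to 4, and were likewise lower in the knockout extract of array 3. Their part in the ratios of the 10 genes was not tested. Of the brown fat markers, Ucp1 and Elovl3 were not well above background, and the summed signal of all 6 was 0.96 to 1.06 times as high in knockout as in wild-type extracts. The same ratio was 1.01 to 1.095 for 6 white fat markers, of which Lep was not well above background. It was 0.97 to 1.01 for 6 striated muscle markers, of which Mb was not. Single markers of these tissues were called higher, Plin1 of white fat at 0.19 (limma adjusted p = 0.048) and Ckm of muscle at 0.26 (adjusted p = 0.041). The acinar median was -0.26, 0.31, 0.090 and 0.31, lower in knockout on array 1, where the beta oxidation median was lowest. Of the 8 acinar markers 3 were called (37.5%, against 14.6% of all genes). They were Cel at 0.66 (limma adjusted p = 0.0059), Cpa1 at 0.62 (adjusted p = 0.0068) and Pnlip at -0.20 (adjusted p = 0.023). The ratios of Cel and Cpa1 exceeded that of every beta oxidation gene. The endothelial median was below 0 on every array, at -0.17, -0.089, -0.27 and -0.13, and 1 of its 4 markers was called, Tek at -0.29 (adjusted p = 0.026). Of 5 mesenchyme markers 1 was called, Pdgfrb at 0.33 (limma adjusted p = 0.021), and the mesenchyme median was -0.0070. Col1a1 and Col3a1 were not called on their brightest probes, at -0.11 and 0.20. Another probe of each was lower, at -0.46 and -0.42 (limma adjusted p = 0.018 and 0.0080 over all probes). The part of acinar, islet, endothelial, mesenchymal, fat and muscle cells in the ratios of the 10 genes was not tested.

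**Figure D5:**
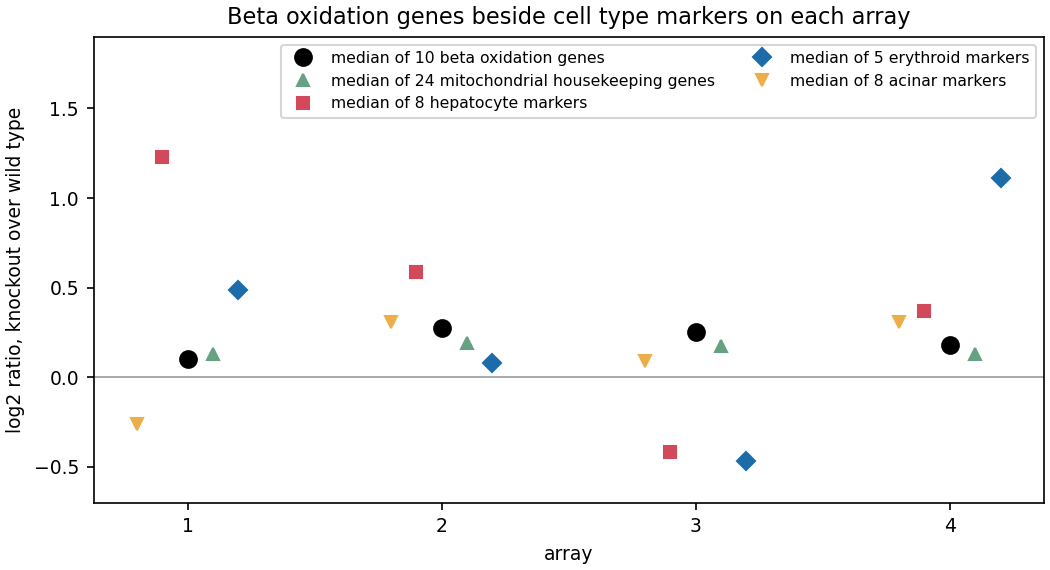
Median log2 ratio of knockout over wild type (vertical axis) of the 10 beta oxidation genes, the mitochondrial housekeeping genes and the markers of hepatocytes, red cells and acinar cells on arrays 1 to 4 (horizontal axis). The beta oxidation medians stay between 0.10 and 0.28 while the hepatocyte medians run from -0.42 to 1.23.

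Array by array, the median spot read 304 to 467 in the red channel (knockout extracts), against 163 to 224 in the green channel (wild-type extracts). These are raw signals of different dyes, before normalisation. Feature Extraction called 78.2% to 85.1% of the spots well above background. Both channels of every member's probes were well above background on all 4 arrays, and no spot was saturated. Cyp11a1 itself was at -0.16 ± 0.070 (limma adjusted p = 0.164), with -0.19, -0.40, 0.013 and -0.072 on arrays 1 to 4. The sources used here do not place its probe relative to the deleted part, so it does not check the genotype labels.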

How the data were processed

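Per the submitters' processing notes, spots were read out by Agilent Feature Extraction (version 10.5.1.1). The deposited columns used here were red and green median and processed intensity, local background intensity, and the log10 ratio, red over green per the file headers. Normexp (offset 50) corrected the median signals for background, which were then loess-normalised within arrays in limma 3.58.1 (R 4.3.3), with control and non-uniform spots at weight 0. Non-uniform spots were dropped and spots of a probe averaged. Signals of single extracts were taken after quantile scaling of mean brightness between arrays. RefSeq accessions gave 25097 of 41174 probes a symbol. Probes well above background in 1 channel on at least 3 arrays were kept, with the brightest probe per gene. Ratios of 4 arrays were fitted against 0 (lmFit, eBayes, two-sided, Benjamini-Hochberg over 15524 genes, threshold 0.05). All members are named, with all genes of the other lists past the threshold (at most 4 per list with values, by smallest p), the electron transfer flavoprotein genes, Ppara, Ppargc1a, Cyp11a1 and the 5 genes most like the members' median. Slc25a20, Echs1, Fabp4, Acaa1a, Acaca, Prkaa2, Acacb, Oxct1, Suclg2, the single cell type markers and the values of Idh3a were added after their values were seen. The members and lists were chosen with earlier results of these data known. The fit was also run on simulated ratios, which were independent normal values with the SD of each gene and shifts added to some genes. They held no dye effect and no correlation between genes, so that run says nothing about either. All arrays shared 1 slide, so slides could not be compared, and the number of arrays limits the precision.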

Additional observations from a re-analysis of the deposited data

Results flagged for a closer look

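Among 31 sets of 4 values (ratios and signals of the 10 genes and their median), 4 had a value far from the other 3, and chance alone marks about 1 set in 20. The Acaa2 ratio of array 2 was 0.54 while the others lay at 0.29 to 0.31. The Acaa2 log2 signal of the knockout extract of array 4 was 10.25, below 10.46 to 10.49. The Acadl log2 signal of the wild-type extract of array 3 was 6.97, below 8.92 to 9.20, and the knockout extract of that array was low too (7.15). The Hadhb log2 signal of the wild-type extract of array 4 was 9.52, below 9.78 to 9.80.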

How the results depend on the processing

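Of the 10 genes, 8 passed with median centring, 0 when the array was ignored (no replicate block; limma, with 4 at an unadjusted p under 0.05), and 3 to 5 without 1 replicate. In the same order the counts were 11922, 107 and 967 to 1634 of all genes (79.4% of calls higher with median centring, 64.9% with loess), and 106, 0 (23 unadjusted) and 8 to 14 of the other pathway genes. Tested as 11 separate probes, 5 member probes passed (10.7% of all 32596 probes), and 3 to 4 without 1 replicate. Of the 113 other pathway genes not called, 5 had another probe that passed. The array holds both extracts, so the fit without it gives up the pairing within each array. Without it the adjusted p was 0.096 for Cpt2, 0.117 for Acaa2, 0.138 for Hadha, 0.229 for Acadvl and 0.454 for Hadhb. Cpt1a changed sign at 0.29 with median centring, 0.0052 with scaling between arrays, 0.027 as the mean of its probes, 0.023 with array weights and 0.057 on its other probe, and ranged from -0.051 to 0.065 without 1 replicate, never past the threshold except with median centring. With median centring Crat (0.054), Cd36 (0.069), Acsm3 (-0.041), Etfb (0.51), Idh3a (0.097), Mutyh (-0.057) and Bfsp2 (-0.028) changed sign. Ppargc1a was at -0.00096 with array weights and ranged from -0.0076 to 0.089 without 1 replicate, and Etfdh from -0.033 to 0.087. The cause was not tested. Under the other 10 settings 95 of 100 values of the 10 genes kept their sign and side of the threshold; the exceptions were 3 of the Cpt1a values above and Hadhb with the processed signals and with the deposited log ratios.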

Other observations

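The 5 genes outside the pathway whose ratios on the 4 arrays lay nearest to the per-array median of the 10 genes (Euclidean distance, 14913 genes with 4 values) were Eif2b4, Nosip, Kcnh2, Mutyh and Bfsp2, at distances of 0.031 to 0.040. Among the 10 genes themselves, Hadhb (0.083) and Acadvl (0.096) were nearest to that median and Cpt1a (0.53) farthest. For Hadhb 44 other genes lay closer.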
